A study of Homo sapiens with 6 samples.

Results

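The genes described here are 40 interferon-stimulated genes, picked by symbol from general knowledge of the interferon response, out of the 38100 genes counted in this series. Earlier results of these data were known when they were picked. All 40 symbols were found in the count table. The cells were HK2, an established human cell line that derives from the epithelium of the kidney's proximal tubule. Every sample carried an adenovirus and had been stimulated with TGF-β1, the cytokine that drives fibrosis in many organs. AdCtrl cells (3 samples) carried adenovirus with an empty vector, and AdSirt4 cells (3 samples) carried adenovirus that overexpressed SIRT4, a mitochondrial sirtuin. Since no sample was free of virus and none was free of TGF-β1, the data give the level of these genes under adenovirus and the difference made with SIRT4 on board, but not their induction by the virus.

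Total counts ran from 41537353 to 85684748 per sample, the lowest in AdSirt4 replicate 1 and the highest in AdSirt4 replicate 2. SIRT4 itself had 31, 47 and 57 counts in the AdCtrl samples and 1996, 7995 and 6827 counts in the AdSirt4 samples, so every library matched its label (log2 fold change 6.36, SE 0.357, adjusted p = 0.00801 by edgeR's quasi-likelihood test). AdSirt4 replicate 1 stood apart from the other libraries by a trend on transcript length, which is shown for the interferon-stimulated genes below. The labels number the cell line differently in each sample, whereas all titles name HK2. Whether the samples were separate cultures was not clear from the sources. The paper's reporting checklist states that n counts technical replicates in its in vitro work, while its methods speak of independent experiments. SDs and p-values therefore measure only the spread between these samples, which may be technical.

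Interferons are secreted proteins that warn neighbouring cells of a virus. Type I and type III interferons bind their receptors, the kinases JAK1 and TYK2 phosphorylate STAT proteins, and STAT2 joins IRF9 in a complex that enters the nucleus and binds the interferon-stimulated response element of target promoters. The products of those targets block viral entry, translation, replication and release, and some of them (STAT2, IRF9, IRF7) carry the signal further. Adenovirus DNA and RNA can be sensed by the cell, and early adenoviral proteins, where a vector still makes them, counteract the response.

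The core of that response element is a pair of GAAA repeats with 2 bases between them, and it is printed here because it is what ties these genes to the pathway at the sequence level. RefSeq promoter windows (GRCh38.p14, from 250 bases before to 50 bases after the start) were matched for 32 of the 40 genes. The motif GAAANNGAAA, or its reverse complement TTTCNNTTTC, was in the window of 22 of the 32 (68.75%) and in 4.376% of all 27305 genes with a window. The genes whose window lacked these letters were IFI35, OAS1, STAT2, IRF1, IRF9, HERC6, XAF1, SAMD9L, CMPK2 and UBE2L6, and IFIT2, MX2, OAS2, OASL, IRF7, USP18, TRIM22 and IFITM2 had no window. A match is a description of the letters and not a measured binding site. For genes with the highest levels and genes that differed most between the groups, 1 match in the window is given with 7 flanking bases, read along the gene's own strand, and the capitals mark the motif:
BST2 (chr19:17405744-17405767, minus strand): tttctggGAAACTGAAActgaaaa
IFITM1 (chr11:313993-314016, plus strand): acagcagGAAATAGAAActtaaga
IFITM3 (chr11:320896-320919, minus strand): atgccagGAAAAGGAAActgttga
ISG15 (chr1:1013377-1013400, plus strand): gcctcggGAAAGGGAAAccgaaac
IFIT1 (chr10:89392500-89392523, plus strand): gctttagTTTCACTTTCccctttc
IFIT5 (chr10:89414516-89414539, plus strand): tattaagTTTCGGTTTCtgaagct
IFI44 (chr1:78649764-78649787, plus strand): cactgagTTTCAGTTTCctttctc
EPSTI1 (chr13:42992275-42992298, minus strand): attctgaGAAACCGAAActcagct
MX1 (chr21:41420562-41420585, plus strand): cagaaatGAAACCGAAActgaatt
IFI27 (chr14:94110634-94110657, plus strand): tttcctgGAAAATGAAAcctatct
MX1 and IFI27 are added as classical members with a match but a low level in these cells. In IFIT1, IFIT5 and IFI44 the motif reads on the opposite strand to the gene. The median level in AdCtrl cells was 6.94 FPKM over the genes with a match and 5.72 FPKM over those with a window but no match (fragments counted per length of transcript and library size, a level that can be compared between genes).

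Interferon-stimulated genes covered the whole range of expression in AdCtrl cells. On the FPKM scale 11 of the 40 were at or above 10, 16 lay between 1 and 10, and 13 were under 1. Their median was 3.84 FPKM over all 40, which include 4 under 0.1 FPKM that were not tested between the groups. These 2 medians therefore do not cover like sets: over all tested genes of the series it was 4.49 FPKM. Of the 36 tested interferon-stimulated genes, 18 lay above that level. In CPM, counts scaled to the size of the library alone, 32 of the 40 reached at least 1 in each AdCtrl sample. All levels in the next paragraphs are mean FPKM ± SD over the 3 AdCtrl samples unless single samples are given.

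The membrane proteins that act on virions stood at the top. BST2 (tetherin, which holds budding enveloped viruses on the cell surface, on chromosome 19 from 17402939 to 17405648) was at 184.5, 166.1 and 186.0 FPKM in AdCtrl and at 261.3, 161.2 and 150.1 FPKM in AdSirt4 samples, here and below in the order of replicates 1, 2 and 3. Its AdCtrl mean of 178.9 ± 11.1 FPKM was at percentile 98.5 of the tested genes, and it alone made up 36.25% to 38.31% of the summed FPKM of the 40 genes in AdCtrl cells. AdSirt4 replicate 1 was above and the other AdSirt4 samples were below every AdCtrl sample. The IFITM proteins, which hinder the fusion of viruses with cell membranes, are encoded side by side on chromosome 11. IFITM1 was at 47.4, 43.8 and 52.5 FPKM in AdCtrl and at 56.4, 37.6 and 34.9 FPKM in AdSirt4 samples. IFITM3 was at 38.4, 39.1 and 39.1 FPKM in AdCtrl and at 38.1, 29.7 and 27.7 FPKM in AdSirt4 samples. In both genes AdSirt4 replicates 2 and 3 lay below all AdCtrl samples, while AdSirt4 replicate 1 was above the AdCtrl range in IFITM1 and just under it in IFITM3. IFITM2 was much lower, at 0.721 ± 0.129 FPKM. These genes are close copies, and IFITM1 shares 351 exonic bases with an IFITM2 transcript in GENCODE v29, so the split of reads among them is uncertain.

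The listed genes of ISG15 conjugation, the attachment of a ubiquitin-like protein to newly made proteins, were all expressed. ISG15, the modifier, was at 23.1, 21.7 and 21.0 FPKM in AdCtrl and at 37.2, 19.9 and 18.7 FPKM in AdSirt4 samples. UBE2L6, its conjugating enzyme, was at 24.9, 25.0 and 25.4 FPKM in AdCtrl and at 23.0, 23.9 and 23.5 FPKM in AdSirt4 samples. For ISG15 the AdSirt4 samples lay on both sides of the AdCtrl samples, and for UBE2L6 the per-length levels of AdSirt4 were all slightly lower while the CPM overlapped. HERC5, the main ligase for ISG15 in human cells, was at 6.29 ± 0.186 FPKM and its neighbour on chromosome 4, HERC6, at 2.33 ± 0.114 FPKM. USP18, which removes ISG15 and also restrains the type I receptor, was at 1.19 ± 0.21 FPKM.

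The factors that carry the signal were all present. STAT2 was at 17.1, 17.6 and 19.4 FPKM in AdCtrl and at 13.0, 18.2 and 20.5 FPKM in AdSirt4 samples. IRF9, its DNA-binding partner, was at 8.41, 9.02 and 8.51 FPKM in AdCtrl and at 8.97, 9.27 and 8.61 FPKM in AdSirt4 samples. Neither separated the groups. IRF1, which also answers to interferon-γ, was at 7.78, 7.31 and 8.14 FPKM in AdCtrl and at 8.49, 8.52 and 9.39 FPKM in AdSirt4 samples, with all AdSirt4 samples above all AdCtrl samples. IRF7, the amplifier of type I interferon production, was at 4.12, 3.85 and 3.98 FPKM in AdCtrl and at 5.17, 3.92 and 4.01 FPKM in AdSirt4 samples, where replicate 1 was the highest and the others lay within the AdCtrl range.

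The IFIT genes, whose products bind foreign RNA, form a cluster on chromosome 10 and differed widely in level. IFIT3 was at 14.4 ± 0.416, IFIT2 at 7.64 ± 0.775, IFIT5 at 4.32 ± 0.231 and IFIT1 at 2.16 ± 0.0442 FPKM, and the ranges of the AdCtrl samples of neighbours in this order did not overlap. The OAS genes on chromosome 12 make 2′-5′ oligoadenylates that activate RNase L. OAS3 was at 10.1 ± 0.0803 and OAS1 at 3.70 ± 0.224 FPKM. The related OASL was at 0.207 ± 0.0471 FPKM, and OAS2 had 6, 4 and 5 raw counts in AdCtrl and 7, 21 and 33 in AdSirt4 samples.

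Among the remaining genes, the partner proteins DTX3L (14.0 ± 0.848 FPKM) and PARP9 (8.51 ± 0.150 FPKM), a ubiquitin ligase and an ADP-ribosyltransferase encoded head to head on chromosome 3, were well expressed. IFI6 (13.2 ± 0.399 FPKM), IFI35 (10.8 ± 0.967 FPKM), IFI44L (8.73 ± 0.282 FPKM) and IFI44 (7.59 ± 0.447 FPKM) were in the same range. The cytosolic RNA sensor IFIH1 (MDA5) was at 3.18 ± 0.283 FPKM and the helicase DDX60 at 2.62 ± 0.186 FPKM. SAMD9 (1.71 ± 0.0369 FPKM) exceeded its neighbour SAMD9L (0.564 ± 0.0781 FPKM), a pair of antiviral factors on chromosome 7. TRIM22 was at 0.809, EPSTI1 at 0.766 ± 0.0250, the exonuclease ISG20 at 0.599 ± 0.0378, the GTPase MX1 at 0.444 ± 0.0865, IFI27 at 0.426 ± 0.165 and the mitochondrial nucleotide kinase CMPK2 at 0.229 ± 0.0892 FPKM.

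Besides OAS2, 3 genes had too few counts for the test. RSAD2 (viperin, which makes a chain-terminating nucleotide) had 6, 7 and 9 counts in AdCtrl and 12, 41 and 11 counts in AdSirt4 samples. MX2, the neighbour of MX1 on chromosome 21, had 2, 9 and 6 counts in AdCtrl and 0, 17 and 4 counts in AdSirt4 samples. XAF1 (an antagonist of an inhibitor of apoptosis) had 0, 0 and 3 counts in AdCtrl and 0, 7 and 0 counts in AdSirt4 samples. Where no read was counted, as many as 3 counts remain possible, or 0.0350 to 0.0722 CPM in these libraries, by counting error alone. Several of the genes most used as reporters of interferon (MX1, MX2, OAS2, RSAD2, IFI27) were thus in the low part of the range, while BST2, IFITM1, IFITM3, UBE2L6 and ISG15 were in the high part.

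Little or no interferon was counted in the cells with these genes. Of 22 interferon genes, 8 had no count in any sample and 16 had none in AdCtrl cells. The 13 IFNA genes together had 1 count in the AdCtrl libraries (in IFNA21) and 16 in the AdSirt4 libraries, spread over IFNA1, IFNA4, IFNA5, IFNA7, IFNA8 and IFNA17 in at most 2 libraries each. IFNA1 gave 6 of these, all in AdSirt4 replicate 2, the deepest library. AdSirt4 replicates 2 and 3 had 85684748 and 80040053 total counts, against 42102861 to 53677241 in AdCtrl. These raw counts are therefore not a comparison of the groups. IFNB1, the first interferon made by an infected epithelial cell, had 4, 0 and 1 counts in AdCtrl and 4, 0 and 2 counts in AdSirt4 samples. IFNW1, IFNK, IFNL1, IFNL3 and IFNL4 had between 0 and 7 counts in each library, and IFNG had none. Only IFNE, an interferon of epithelia, passed the filter, with 15, 16 and 21 counts in AdCtrl and 22, 44 and 23 counts in AdSirt4 samples (log2 fold change 0.33, SE 0.364, unadjusted p = 0.391 by edgeR). The counting could split reads among the near-identical IFNA genes. Secreted protein was not measured, and a transcript made only before the harvest would not be counted.

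The machinery to answer interferon was in place. Of 9 receptor subunits and kinases, only IFNLR1 of the type III receptor (1.25 FPKM) and JAK2 (0.520 FPKM) were under 10 FPKM on average, and IFNAR1 and IFNAR2 of the type I receptor were at 10.6 and 19.6 FPKM. Among 16 sensors and their signalling proteins, the DNA sensors IFI16 and CGAS were at 53.3 and 13.1 FPKM and the RNA sensor RIG-I (DDX58) at 6.09 FPKM, whereas STING1 was at 2.07 FPKM, AIM2 at 0.0328 FPKM and ZBP1 was listed at 0. B2M, the light chain of the class I molecules that present antigen, was at 955.7 FPKM. TNFSF10 (TRAIL) reached 138.5 FPKM, while the chemokines CXCL9 and CXCL10 had 0 counts in every sample.

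**Figure D1:**
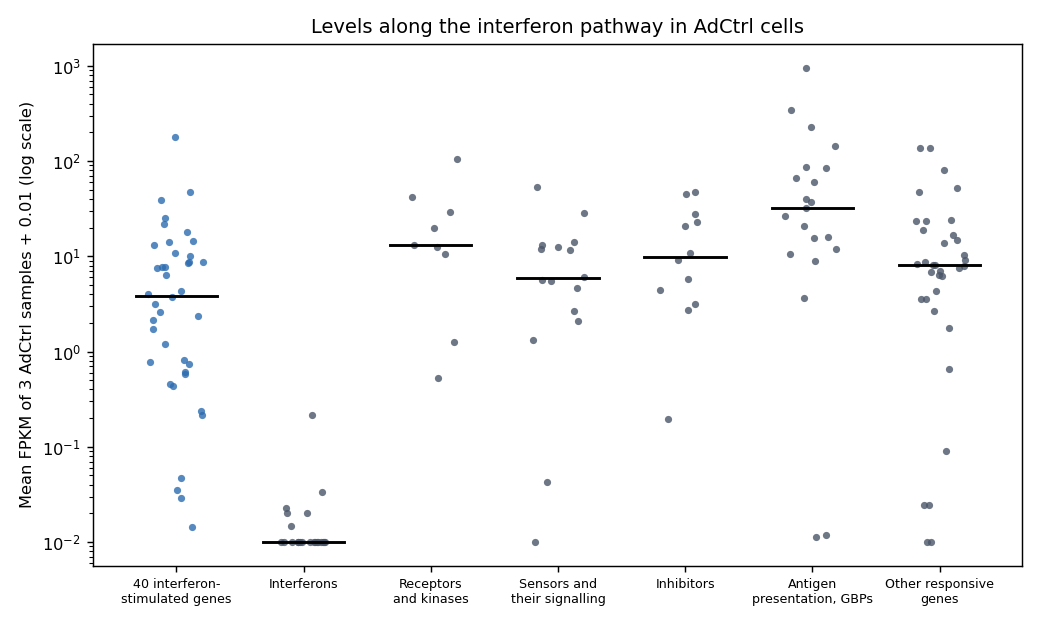
Mean FPKM in the 3 AdCtrl samples (plus 0.01, log scale) of the 40 interferon-stimulated genes (blue) and of the other genes of the pathway by role (grey), with 1 point per gene and a black bar at the median. The interferons lie at the bottom, 16 of the 22 with no count in AdCtrl cells, and JAK1 is the highest point of the receptors and kinases at 104 FPKM.

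The cells carried many epithelial markers, 8 of 13 at a mean of at least 1 FPKM over all samples, and most markers of blood cells were at or near 0. KRT8, KRT18, EPCAM and PAX8 were between 50.9 and 411 FPKM in AdCtrl cells, although LRP2, CUBN and ANPEP of the mature proximal tubule were between 0 and 0.0342 FPKM. Of 14 leukocyte markers, 5 had no count in any sample, PTPRC (CD45) had 0 to 7 counts, and CD68 and CD14, which are not limited to blood cells, were at 18.2 and 1.55 FPKM in AdCtrl cells. The summed level of the 14 markers was between 35.16 and 49.99 CPM over the 6 samples. Without CD68 and CD14 it ran from 0.906 to 0.965 CPM in AdCtrl and from 0.564 to 1.25 CPM in AdSirt4 samples. Over all samples the 13 epithelial markers summed to between 1843 and 2431 CPM and the 6 endothelial markers to between 0.462 and 0.823 CPM. The 7 fibroblast markers summed to between 42.13 and 46.72 CPM, and 2 of them reached a mean of 1 FPKM.

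The second question was whether SIRT4 overexpression shifted these genes. It moved none of them past the threshold of an adjusted p of 0.05, and the differences that came nearest were under 0.5 on the log2 scale and went both ways. Counts of 36 genes could be tested. At an unadjusted p under 0.05 in edgeR, 4 were higher in AdSirt4 (EPSTI1, TRIM22, IFI44 and IRF1), against 4.43% of all 17720 genes tested, and 2 were lower (IFIT1 and IFIT5), against 3.5% of all genes. That is 16.67% of the 36 in either direction beside 7.935% of all genes. The list was picked with earlier results of these data known, so the 2 shares are only a description. No interferon-stimulated gene and 0.0113% of all genes had an adjusted p under 0.05. The median log2 fold change was 0.04 over the 36 genes and 0.02 over all genes, with 19 of the 36 above 0 and 17 below. DESeq2 also called 4 higher (background 5.17%) and 2 lower (background 4.07%) at an unadjusted p under 0.05, and none at an adjusted p under 0.05 (background 1.21%). With the replicate number as a block, 2 were higher (TRIM22 and EPSTI1, background 4.08%) and 0 lower (background 3.12%), since the unadjusted p of IFI44, IFIT1, IFIT5 and IRF1 was then between 0.0589 and 0.0770 in edgeR. In bulk samples, fewer cells that express a gene and less RNA per cell cannot be told apart.

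The genes higher in AdSirt4 were an assorted group. The values that follow are CPM scaled by the TMM method, which the test used, in replicates 1, 2 and 3. EPSTI1, a gene induced in epithelium by contact with stroma and by interferon (chromosome 13, 42886388 to 42992271), was at 2.98, 3.53 and 3.15 CPM in AdCtrl and at 4.67, 4.10 and 4.12 CPM in AdSirt4 cells. All AdSirt4 samples were above all AdCtrl samples (log2 fold change 0.42, SE 0.142, unadjusted p = 0.0216, adjusted p = 0.578 by edgeR). IRF1 (chromosome 5, 132481609 to 132490798) was at 30.9, 29.8 and 31.3 CPM in AdCtrl and at 37.0, 33.7 and 36.5 CPM in AdSirt4 cells, again without overlap (log2 fold change 0.22, SE 0.0898, unadjusted p = 0.0432, adjusted p = 0.619 by edgeR). IRF1 shares 1716 exonic bases with its antisense gene, listed as IRF1-AS1, which had only 53 to 83 counts per library. TRIM22 and IRF9 share exonic bases with another gene on their strand (642 and 1838 bases), and XAF1 with an antisense gene (2535 bases). IFI44, a gene induced by type I interferon (chromosome 1, 78649796 to 78664078), was at 14.33, 14.96 and 15.02 CPM in AdCtrl and at 25.7, 16.1 and 17.9 CPM in AdSirt4 cells. Its groups did not overlap in CPM either, but replicate 1 was far above the other AdSirt4 samples (log2 fold change 0.43, SE 0.180, unadjusted p = 0.0487, adjusted p = 0.628 by edgeR), and the log2 fold change was 0.20 without that library. TRIM22, a ubiquitin ligase that restricts retroviruses (chromosome 11, 5689689 to 5737089), was at 2.27, 2.49 and 3.17 CPM in AdCtrl and at 3.10, 3.66 and 4.24 CPM in AdSirt4 cells. Its groups overlapped by AdSirt4 replicate 1 (log2 fold change 0.48, SE 0.195, unadjusted p = 0.0445, adjusted p = 0.620 by edgeR).

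The genes lower in AdSirt4 were both IFIT genes. IFIT1, which binds RNA that lacks the methylated cap of host messengers (chromosome 10, 89392546 to 89406486), was at 10.4, 10.9 and 10.5 CPM in AdCtrl and at 9.80, 8.39 and 7.51 CPM in AdSirt4 cells. IFIT5 (chromosome 10, 89414586 to 89421001) was at 19.6, 19.5 and 20.2 CPM in AdCtrl and at 18.0, 15.7 and 16.3 CPM in AdSirt4 cells. In each, all AdSirt4 samples were below all AdCtrl samples (IFIT1 log2 fold change -0.31, SE 0.126, unadjusted p = 0.0438, adjusted p = 0.619; IFIT5 log2 fold change -0.25, SE 0.0967, unadjusted p = 0.0381, adjusted p = 0.612 by edgeR). The other genes of the cluster were not called. IFIT3 had a log2 fold change of -0.08 (SE 0.0957) and IFIT2 of -0.10 (SE 0.0993), and the samples of the groups overlapped in both.

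Over the 36 genes the AdSirt4 samples lay all above the AdCtrl samples in 5 (IRF1, IFI44, HERC5, HERC6 and EPSTI1), against 9.66% of all genes, and all below them in 3 (IFIT1, IFIT5 and PARP9), against 9.77% of all genes. The other 28 overlapped. For each of these 8 genes the two-sided exact permutation test gave p = 0.1, the smallest that 3 samples against 3 allow. Groups without overlap always give that value, so the test adds nothing to the separation. HERC5 was at 25.0, 24.8 and 24.7 CPM in AdCtrl and at 34.9, 26.3 and 27.4 CPM in AdSirt4 cells, which made its log2 fold change 0.25 (SE 0.128) in all samples and 0.11 without AdSirt4 replicate 1.

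The remaining genes at the ends of the order had large errors. CMPK2 was at 0.980, 0.682 and 0.525 CPM in AdCtrl and at 1.26, 0.951 and 0.861 CPM in AdSirt4 cells, with overlap (log2 fold change 0.47, SE 0.303). IFI35 was at 14.0, 16.5 and 13.1 CPM in AdCtrl and at 24.1, 16.1 and 14.5 CPM in AdSirt4 cells (log2 fold change 0.32, SE 0.206), and IFI6 was at 11.8, 12.6 and 12 CPM in AdCtrl and at 21.4, 12.2 and 11.7 CPM in AdSirt4 cells (log2 fold change 0.31, SE 0.238). In IFI6 only AdSirt4 replicate 1 was above the AdCtrl samples, and in IFI35 the other AdSirt4 samples were within their range. At the other end, IFITM2 was at 0.684, 1.01 and 0.798 CPM in AdCtrl and at 1.18, 0.278 and 0.406 CPM in AdSirt4 cells (log2 fold change -0.49, SE 0.541), and IFITM3 was at 26.7, 27.9 and 26.1 CPM in AdCtrl and at 28.6, 20.6 and 18.9 CPM in AdSirt4 cells (log2 fold change -0.25, SE 0.163). In both the groups overlapped because AdSirt4 replicate 1 was the highest sample. OAS3 was at 75.2, 77.0 and 73.3 CPM in AdCtrl and at 37.5, 75.5 and 79.2 CPM in AdSirt4 cells (log2 fold change -0.23, SE 0.264), and DTX3L was at 89.0, 90.5 and 94.5 CPM in AdCtrl and at 52.5, 93.0 and 93.7 CPM in AdSirt4 cells (log2 fold change -0.20, SE 0.217). The differences in OAS3 and DTX3L rested on AdSirt4 replicate 1, since the other AdSirt4 samples were within or next to the AdCtrl range.

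In these genes AdSirt4 replicate 1 departed from the other samples of its group in a direction that followed transcript length. All 9 genes with a transcript under 1.5 kb (BST2, ISG15, IFI6, IFI27, IFI35, UBE2L6, IFITM1, IFITM2 and IFITM3) were higher in it than in the mean of AdSirt4 replicates 2 and 3, by a median of 0.84 on the log2 CPM scale. None of the 6 genes with a transcript over 6 kb (OAS3, DTX3L, IFI44L, SAMD9, SAMD9L and DDX60) was higher, and their median was -0.88. Across the 36 genes the deviation of AdSirt4 replicate 1 from its group correlated with length at a Spearman coefficient of -0.794, and across 17511 genes at -0.591. In the AdCtrl samples the coefficient over the 36 genes was between -0.175 and 0.200. The points of such a correlation share a library and a length estimate and are a description. The median coefficient of variation of the 36 genes was 5.48% in AdCtrl and 16.3% in AdSirt4 samples. The 40 genes together were at 481.6, 458.3 and 494.9 FPKM in AdCtrl and at 578.3, 439.2 and 428.3 FPKM in AdSirt4 samples. The sum of AdSirt4 replicate 1 was the highest of all samples and the others of its group were the lowest. Most of that excess was BST2, which made up 45.19% of the sum in AdSirt4 replicate 1, and without BST2 the sums were 297.1, 292.1 and 308.9 FPKM in AdCtrl and 316.9, 278.0 and 278.2 FPKM in AdSirt4 samples. What set this library apart was not tested. With the length trend removed from each library, 5 of the 36 genes were higher at an unadjusted p under 0.05 in edgeR, against 7.67% of all genes, and 2 were lower (IFITM1 and IFITM3), against 6.33%. The log2 fold changes of IFIT1 and IFIT5 were then -0.26 and -0.21, with unadjusted p = 0.107 and 0.0628 by edgeR.

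Without AdSirt4 replicate 1 a group of genes was lower in AdSirt4. This fit sets 2 samples against 3, tests 38 of the 40 genes and calls many more genes overall. At an unadjusted p under 0.05, 6 were higher, against 11.8% of all genes, and 7 lower, against 12.5% of all genes. At an adjusted p under 0.05, 6.71% of all genes were called in either direction, and 610 of all 18287 were lower. Of the 38, 5 were called at that threshold, all of them lower. These were the 3 IFITM genes and the same IFIT genes as above. IFITM3 fell by 0.45 (SE 0.0717, adjusted p = 0.00765), IFITM1 by 0.41 (SE 0.0728, adjusted p = 0.0110), IFIT1 by 0.42 (SE 0.0936, adjusted p = 0.0258), IFIT5 by 0.31 (SE 0.0703, adjusted p = 0.0269) and IFITM2 by 1.28 (SE 0.334, adjusted p = 0.0453) on the log2 scale in edgeR. In the fit of all samples the adjusted p of these 5 genes lay between 0.612 and 0.877. BST2 and ISG15 changed sign, from 0.15 to -0.21 (adjusted p = 0.0562) and from 0.25 to -0.20 (adjusted p = 0.183), and SAMD9 changed from -0.03 to 0.23 (adjusted p = 0.128 by edgeR). OAS2 entered the test with a log2 fold change of 1.65 (SE 0.484, adjusted p = 0.0661), on 15 counts summed over AdCtrl. EPSTI1, TRIM22, IRF1 and IFI44 stayed above 0, at 0.35, 0.57, 0.19 and 0.20. The signs at both ends of the length range still differed in this fit. OAS3, DTX3L, IFI44L, DDX60, SAMD9 and SAMD9L, all over 6 kb, were above 0, at 0.04, 0.03, 0.06, 0.04, 0.23 and 0.28. Of the genes under 1.5 kb only IFI35 was above 0, at 0.07. No length trend was removed in this fit, and its part in these differences was not tested.

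**Figure D2:**
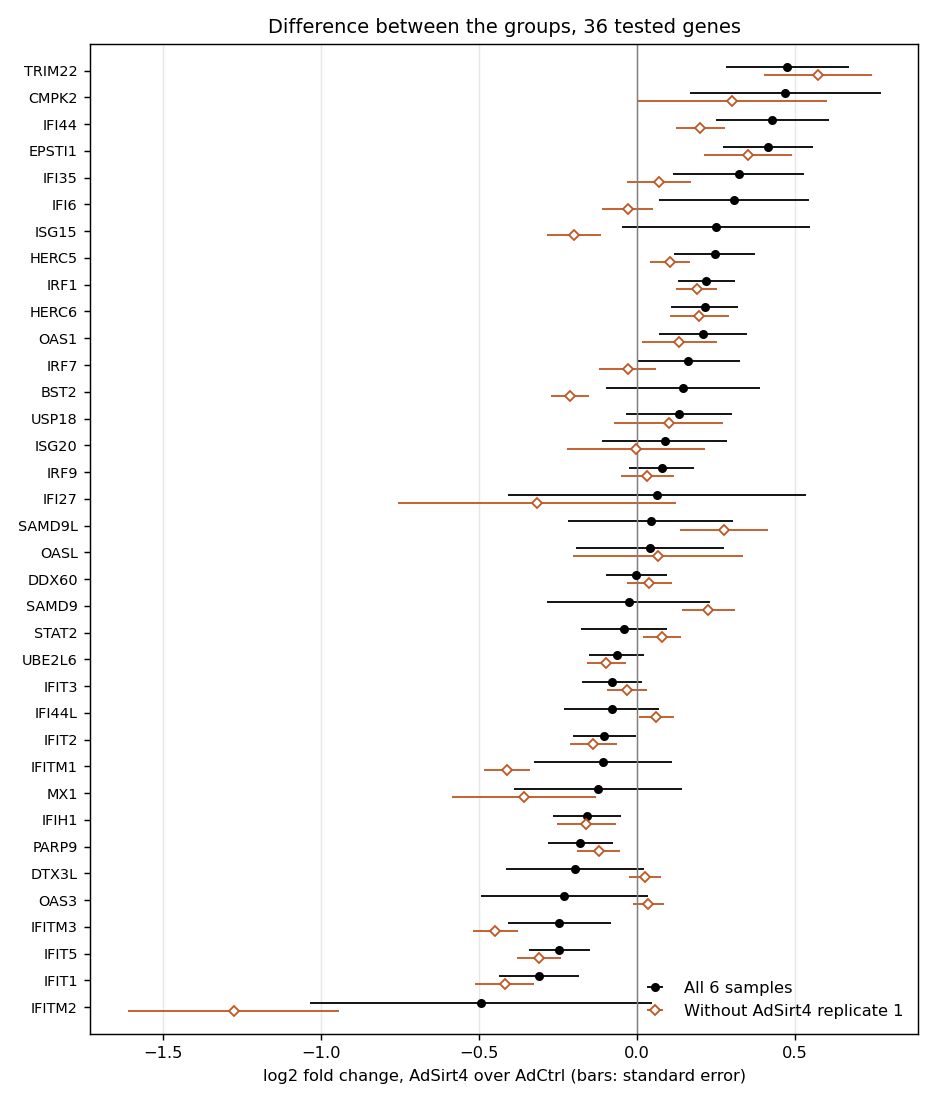
Log2 fold change (AdSirt4 over AdCtrl, TMM-scaled counts, edgeR) with its standard error for the 36 tested interferon-stimulated genes, from all 6 samples (black) and without AdSirt4 replicate 1 (orange, open). The IFITM genes, BST2 and ISG15 move to the left without that library and SAMD9, SAMD9L, OAS3 and DTX3L to the right, while the IFIT genes and TRIM22 move little.

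The 16 tested genes that are not named with a fold change above had log2 fold changes between -0.18 and 0.21 in the fit of all samples, and none had an unadjusted p under 0.05. The largest errors among them were those of genes under 1 FPKM. IFI27 had an SE of 0.471, MX1 of 0.267, SAMD9L of 0.263 and OASL of 0.234. For the factors STAT2, IRF7 and IRF9 the log2 fold changes were -0.04 (SE 0.137), 0.16 (SE 0.162) and 0.08 (SE 0.103), and for USP18 0.14 (SE 0.168).

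In the rest of the pathway the differences were also small and mixed, and none passed an adjusted p of 0.05 by edgeR in all samples, while DESeq2 called TAP1 (adjusted p = 0.0104) and TNFSF10 (adjusted p = 0.000498). The counts that follow are at an unadjusted p under 0.05 in edgeR, which 4.43% of all genes reached as higher and 3.5% as lower. With the replicate block IFNGR1, JAK2, AIM2 and PTPN1 were no longer called, at an unadjusted p between 0.0526 and 0.0819 in edgeR. Of the 9 receptor subunits and kinases, 1 was higher (IFNGR1) and 1 was lower (JAK2). JAK2 had a log2 fold change of -0.38 (unadjusted p = 0.0268 by edgeR). Of 15 sensors tested only AIM2 was called, on 9 to 40 counts per library. Of 12 inhibitors, PTPN2 was higher and SOCS3 and PTPN1 were lower. SOCS3, which is induced by cytokines and blocks JAK kinases, had a log2 fold change of -0.36 (unadjusted p = 0.00676, adjusted p = 0.494 by edgeR). Of 19 genes tested of antigen presentation and guanylate-binding proteins, TAP1, the peptide transporter, was lower (log2 fold change -0.40, unadjusted p = 0.00323, adjusted p = 0.494 by edgeR), with 26.1, 24.8 and 28.1 FPKM in AdCtrl and 19.8, 19.7 and 19.0 FPKM in AdSirt4 cells. Without AdSirt4 replicate 1 its adjusted p was 0.00111 by edgeR, and 5 genes of this list passed, all of them lower. Beside them, 6.71% of all genes passed in either direction in that fit, and 610 of all 18287 passed as lower. In that fit 4 of the other interferon-responsive genes also passed, 3 of them higher and 1 lower. Among the inhibitors 2 passed, both lower, and no receptor, kinase or sensor passed. Of 31 other interferon-responsive genes tested, TNFSF10 and TRIM21 were higher in the fit of all samples. TNFSF10 was at 132.6, 143.9 and 139.0 FPKM in AdCtrl and at 185.5, 185.6 and 222.8 FPKM in AdSirt4 cells (log2 fold change 0.55, unadjusted p = 0.00184, adjusted p = 0.494 by edgeR).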

How the data were processed

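RNA-seq of 6 samples was analysed from 2 deposited tables. The first holds raw counts per gene, which the authors deposited without normalization. The second table was deposited without a named unit and was taken here as FPKM, from its values. For 11941 of 17511 genes, and for 27 of the 36 tested members, the length implied by both tables was the same in all samples within 5%. Implied lengths were first divided by the median of their sample, which removes any factor common to a whole sample. The check therefore cannot tell FPKM from another unit per transcript length. The submitters' processing notes name fastp 0.21.0, HISAT2 2.1.0, StringTie 2.1.5, DESeq2 1.30.1 and hg38; the annotation and the strand setting are not given in the sources used here. Reads of the IFITM, IFNA and overlapping genes are therefore uncertain.

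Counts were filtered (filterByExpr, minimum count 10), TMM-scaled and compared with edgeR 4.0.16 (robust quasi-likelihood test, Benjamini-Hochberg over all 17720 genes, threshold 0.05) in R 4.3.3. Exact permutation tests were two-sided. Alternatives were DESeq2 1.42.0, RLE scaling, no filter, a replicate block, removal of the length trend, limma 3.58.1 on log2(FPKM + 1) or log2(FPKM + 0.1), a minimum of 1 FPKM, and leaving out each sample. Samples with the same replicate number deviated together (correlation across genes 0.178, 0.159 and 0.176, others -0.188 to 0.0298). The numbers were therefore taken to pair samples in the fits with a replicate block. The main edgeR test, DESeq2, limma and the exact permutation tests did not use this pairing. Figures were drawn with matplotlib 3.10.9.

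The members and the other lists were chosen with earlier results of these data known. All 40 members are accounted for. Per-sample values are given for the 6 with the highest AdCtrl level, the 6 highest and 6 lowest fold changes, those with an unadjusted p under 0.05, STAT2, IRF1, IRF7 and IRF9, and those below the filter. From each other list up to 4 genes with the smallest p, every counted interferon, and genes picked for their level after the values were seen are named. Gene coordinates are from GENCODE v29 (GRCh38). Some genes of the other lists are not reported here.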

Additional observations from a re-analysis of the deposited data

How the results depend on the processing

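The number of interferon-stimulated genes at an unadjusted p under 0.05 depended on the fit. Against 4 higher and 2 lower (785 and 621 of 17720 over all genes), the replicate block gave 2 and 0 (723 and 553). Limma on log2(FPKM + 1) gave 1 higher and 2 lower (877 and 766 of 28227). On log2(FPKM + 0.1) it also gave 1 and 2 (875 and 745 of 28227). In both the higher gene was OAS2 (15 counts in AdCtrl, not tested in the full fit) and none of the 4 genes. The lower genes were IFIT1 and IFIT5. Limma with a mean of at least 1 FPKM tested 27 of the genes, without EPSTI1 and TRIM22. It gave 0 higher and 2 lower (409 and 502 of 12319), again IFIT1 and IFIT5. Its median log2 fold change was -0.0618 in place of 0.04, and -0.0261 over all genes. The fit of all genes with a count gave 4 higher and 1 lower (926 and 633 of 28227). With each sample left out in turn, 1 to 6 were higher, 0 to 7 were lower and 0 to 5 had an adjusted p under 0.05. All extremes above the full fit (6, 7 and 5) were those without AdSirt4 replicate 1. Over all 18287 genes of that fit, 2167 were higher, 2279 were lower and 1227 had an adjusted p under 0.05. The fits that left out any other sample gave 371 to 872 higher and 292 to 629 lower over all genes, of 17962 to 18280. The lower calls were lost in each of the other 5 such fits, and without AdCtrl replicate 1 all 6 of the called genes were lost, each of these fits having fewer samples. Removing the length trend gave 5 higher and 2 lower, with more calls over all genes as well (7.67% and 6.33%); IFIT1 and IFIT5 kept similar folds (-0.26 and -0.21) but were not called, and IFITM1 and IFITM3 were called lower. Over the fits that each omit a sample, the log2 fold change ran from -0.20 to 0.45 for ISG15, from -0.21 to 0.32 for BST2 and from -0.22 to 0.23 for SAMD9, the sign without AdSirt4 replicate 1 being opposite to that in all samples. In all, 20 of the 36 tested genes kept their sign under every alternative that tested them and 16 did not. The cause of these changes was not tested. The number of genes at 1 CPM or more in each AdCtrl sample (32) was 35 at 0.5 CPM and 27 at a mean of 1 FPKM. Genes with few counts (OAS2, RSAD2, MX2, XAF1) are limited by depth. The replicate block changed no other call of the 36 genes.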
